A study of Caenorhabditis elegans with 2 samples.

Results

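The X chromosome of Caenorhabditis elegans held 2318 of the 14968 peaks (15.5%) at which tagged ZTF-16 was listed in the deposited pooled peak list on assembly ce11, and the other 12650 lay on the 5 autosomes. The members were all peaks of that list assigned to the X chromosome, so signal played no part in the choice. They were recovered by chromatin immunoprecipitation and sequencing with an anti-GFP antibody. The animals were late embryos of strain OP558, genotype unc-119(tm4063) III; wgIs558, of mixed sex, collected whole 5 hours after synchronisation. The integrated transgene wgIs558 encodes ZTF-16 fused to a C-terminal tag of GFP and FLAG, and its promoter is not named in the labels. All animals belong to 1 group, sampled in 2 biological replicates, so chromosomes are compared within the same libraries. Whole embryos were used, so a peak does not say in which cells the protein was recovered.

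ZTF-16 is a C2H2 zinc-finger protein related to Hunchback and Ikaros. The worm X chromosome is present in a double dose in hermaphrodites and a single dose in males. In hermaphrodites, a dosage compensation complex is recruited to certain X sites that carry a sequence motif, spreads from them, and lowers transcription from both X copies. The worm X also carries many of the genome's tRNA genes, which RNA polymerase III transcribes from promoter elements inside the gene, named the A box and the B box. Both kinds of sequence were present at the strong X peaks described here.

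Of the 2318 X peaks, 176 (7.59%) were also in the list that passed the irreproducible discovery rate (IDR) procedure, a filter on how similarly peaks rank between replicates. The background over all chromosomes was 822 of 14968 peaks (5.49%), and single autosomes ranged from 4.49% to 5.40%. The 822 are also the 822 pooled peaks with the highest signal, and signal is used below only as a rank, with rank 1 the strongest of all chromosomes. The weaker pooled entries come from a relaxed list and may include background. Ranks in a replicate are those of the nearest summit within 200 bp in that replicate's own list. Single IDR-thresholded peaks need not rank alike in both replicates: the X peak at rank 816 ranked 363 in replicate 1 and 3539 in replicate 2. The lists carry no read counts, so depth is unknown, and the intervals given (Wilson, 95%) reflect counting error alone. For a count of 0, the limit given in the text is instead 3 counts of the total.

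The sequences at the strongest X peak of each kind, and at the strongest in ztf-16, show what these peaks lie on. Coordinates are on ce11 (WBcel235), sequences are those of the RefSeq copy of that assembly, and each window runs 50 bp to either side of the summit on the plus strand. The first lies upstream of ftt-2, a 14-3-3 protein gene. The second lies on C04A11.t1, a tRNA-Leu gene. The third lies in an intron of mom-1, whose Porcupine-like product acts in Wnt secretion, and the fourth in an intron of ztf-16 itself. Capitals mark GCGCAGGG, the core of the motif of X recruitment sites.
ftt-2 upstream, rank 7, X:11605897-11605997: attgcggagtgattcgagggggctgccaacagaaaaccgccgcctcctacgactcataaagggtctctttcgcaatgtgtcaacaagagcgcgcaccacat
C04A11.t1, rank 16, X:13665530-13665630: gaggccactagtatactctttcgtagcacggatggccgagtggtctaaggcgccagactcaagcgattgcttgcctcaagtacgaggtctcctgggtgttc
mom-1 intron, rank 26, X:6296492-6296592: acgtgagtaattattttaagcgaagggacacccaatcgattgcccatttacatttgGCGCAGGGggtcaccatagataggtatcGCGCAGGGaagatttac
ztf-16 intron, rank 303, X:4810233-4810333: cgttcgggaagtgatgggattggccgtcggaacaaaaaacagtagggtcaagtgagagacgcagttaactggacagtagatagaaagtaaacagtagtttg
The mom-1 window held the core motif 2 times, and none of the other windows held it.

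The 176 IDR-thresholded X peaks fell into 3 main kinds. Within 200 bp of a tRNA gene lay 78 (44.3%, interval 37.2 to 51.7). These are peaks and not all separate sites: C04A11.t1, for example, had peaks at ranks 16 and 604. Away from tRNA, snoRNA, snRNA, rRNA and miRNA genes, 52 (29.5%) were in a promoter window, which spans the 1000 bp before and the 200 bp after a protein-coding gene's 5' end. Outside both lay 45 (25.6%), and the last peak lay near the miRNA gene mir-54. The ranks of the kinds differed: the median rank was 237.5 near tRNA genes, 457 in promoter windows and 430 outside.

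Near-tRNA peaks made up a larger share on X than on any autosome. On the autosomes 87 of 646 IDR-thresholded peaks (13.5%, interval 11.0 to 16.3) were near a tRNA gene, with single autosomes between 10.7% and 17.6%. The odds ratio of X against autosomes was 5.11 (95% interval 3.45 to 7.55), and the difference passed a two-sided Fisher's exact test (adjusted p = 1.93e-16). The main tests form 1 family of 8, adjusted by Benjamini-Hochberg. For each alternative setting, its p values replaced those of the main tests within the 8 before adjustment. No correction was made across settings. All tests take peaks or genes as independent, which neighbouring ones are not, and peaks are not replicates of a condition. Each replicate's own list therefore stands beside the pool: among the strongest 822 peaks of replicate 1 the shares were 39.3% on X and 12.6% on autosomes, and in replicate 2 they were 43.8% and 13.0%.

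**Figure D1:**
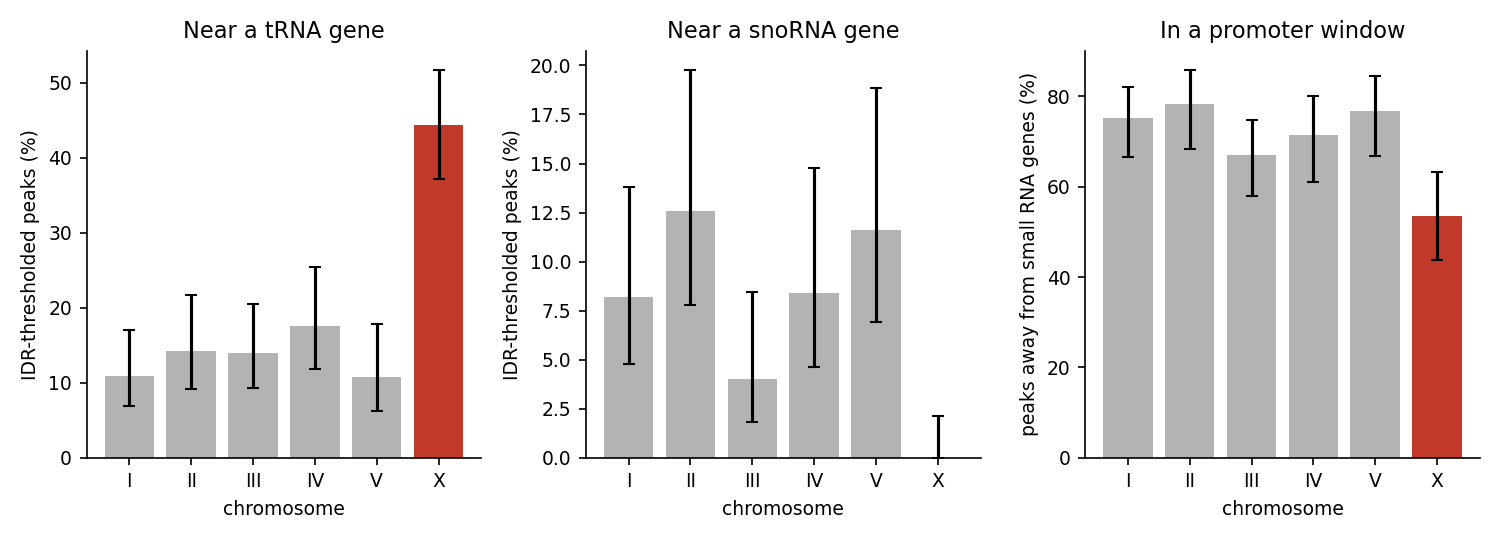
Bars give, for each chromosome, the percentage of IDR-thresholded peaks within 200 bp of a tRNA gene, within 200 bp of a snoRNA gene, and, among peaks away from small RNA genes, in a promoter window, with X in red and Wilson 95% intervals as lines. X stands above every autosome for tRNA genes at 44.3%, at 0 for snoRNA genes, and below every autosome for promoter windows at 53.6%.

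The X chromosome also has more tRNA genes, 276 of the 612 nuclear ones, or 15.6 per Mb against 3.73 to 4.64 per Mb on the autosomes. Counted by gene, 79 of the 276 X genes (28.6%, interval 23.6 to 34.2) had an IDR-thresholded summit within 200 bp, against 90 of 336 (26.8%, interval 22.3 to 31.8) on the autosomes. That difference did not pass (odds ratio 1.10, 95% interval 0.755 to 1.59, Fisher's exact test, adjusted p = 0.743). Single autosomes ranged from 16.7% to 34.4%, which holds the X value. Among the upper 411 peaks alone, 59 X genes (21.4%) and 45 autosomal genes (13.4%) were marked, and that difference passed (odds ratio 1.76, Fisher's exact test, adjusted p = 0.0127). This was 1 of 5 alternative settings of the test by gene, and in 4 the difference did not pass. By rank, 55 of the 78 near-tRNA X peaks (70.5%) were in the upper 411, against 43 of the 87 autosomal ones (49.4%), and the median autosomal rank was 426. The whole pooled list gave the opposite order, with 50.7% of X and 61.3% of autosomal tRNA genes near any pooled summit, and this pair was not tested.

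The strongest X peaks were mostly at tRNA genes. Of the 15 with the highest signal, 11 were within 200 bp of a tRNA gene, 2 were in promoter windows and 2 lay outside. All 15 ranked among the first 100 in both replicates. C04A11.t1 ranked 16 in the pool, 14 in replicate 1 and 15 in replicate 2. A pair of tRNA-Ala genes, F15G9.t1 and F15G9.t2, in an intron of him-4, which encodes the extracellular matrix protein hemicentin, ranked 17 in the pool, 21 in replicate 1 and 13 in replicate 2. The tRNA-Asn gene F41D9.t3, in an intron of sulp-3, a sulfate permease family gene, ranked 24, with 18 and 38 in the replicates. The tRNA-Lys gene W03G11.t1, nearest to the collagen gene col-181, ranked 27, with 27 and 24. The remaining ones were M02F4.t1 and M02F4.t2 (rank 48), C28G1.t1 (53), T07H6.t2 upstream of lev-9 (61), F28H6.t1 (63), ZK678.t1 upstream of nhr-255 (66), C06G1.t1 (70) and C02B4.t2 in nhr-17, nearest to nlp-76 (71).

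Which X tRNA genes had a peak varied with their surroundings. Of 141 X genes whose next tRNA gene was farther than 1000 bp, 55 (39.01%, interval 31.3 to 47.2) had one, against 24 of 135 (17.8%, interval 12.2 to 25.1) with a tRNA neighbour within 1000 bp. On the autosomes the corresponding shares were 29.8% and 19.8%. Genes inside and between protein-coding genes were closer together on X, at 25 of 96 and 54 of 180. Of the X genes whose sequence is shared with another nuclear tRNA gene 32.4% had a peak, and of the 57 with a sequence of their own 8 did. Along the chromosome, 24 of 51 tRNA genes (47.1%) had a peak in the left of 3 equal segments, 26 of 107 (24.3%) in the middle one and 29 of 118 (24.6%) in the right one. The 1 Mb at X:8000001-9000000, singled out after its values were seen, held 51 tRNA genes and only 7 with a peak (13.7%). Elsewhere on X, 72 of 225 had one. None of these splits was tested.

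**Figure D2:**
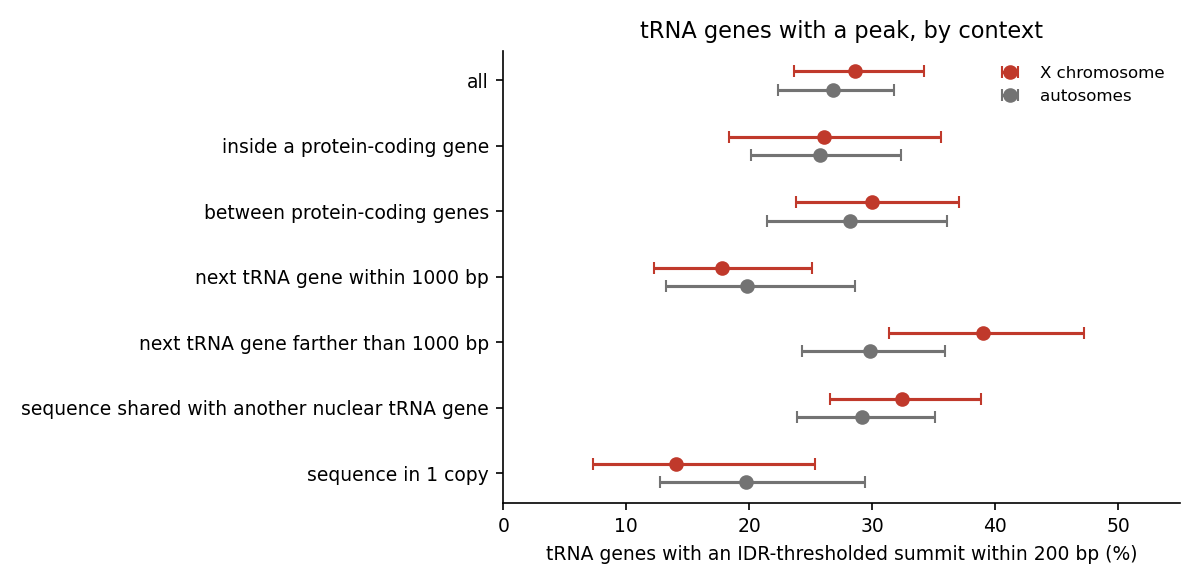
Points give the percentage of tRNA genes with an IDR-thresholded summit within 200 bp on X (red) and on the autosomes (grey), for all genes and by context, with Wilson 95% intervals. The widest gap between contexts on X is between genes with and without a tRNA neighbour within 1000 bp, 17.8% against 39.01%.

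By the amino acid they carry, the isotypes with most X genes were tRNA-Arg with 27, tRNA-Glu with 23, and tRNA-Gly and tRNA-Pro with 20 each. A peak was listed at 5 of the tRNA-Arg genes, 8 of the tRNA-Glu genes, 9 of the tRNA-Gly genes and 8 of the tRNA-Pro genes. On the autosomes the counts were 7 of 17 for tRNA-Arg, 6 of 18 for tRNA-Glu, 6 of 35 for tRNA-Gly and 4 of 22 for tRNA-Pro. By share, the isotypes stood in the opposite order there, with tRNA-Glu alike in both, at 34.8% on X and 33.3% on the autosomes. The counts are small and the order of isotypes was not tested.

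Copies of 1 tRNA sequence did not share 1 state. Of the 33 sequences present at more than 1 X gene, which cover 203 X genes, 29 had copies with and copies without an IDR-thresholded peak, 4 had none with one, and 0 had one at every copy. The following pairs are identical over the tRNA gene and differ outside it, and they are shown from 30 bp before the gene to 10 bp after it, on the gene's strand, with the B box core GGTTCGA in capitals. All are farther than 1000 bp from the next tRNA gene. The tRNA-Glu gene rte-1 ranked 284 in the pool, with 515 and 184 in the replicates, and rte-3 was near no pooled summit. The tRNA-Ile gene C42D8.t1 ranked 85, with 63 and 87, and R11B5.t3 was near none.
rte-1, with a peak, X:14015914-14016025, plus strand: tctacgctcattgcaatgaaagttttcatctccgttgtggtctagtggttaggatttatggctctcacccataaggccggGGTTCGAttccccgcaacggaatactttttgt
rte-3, without, X:7681010-7681121, plus strand: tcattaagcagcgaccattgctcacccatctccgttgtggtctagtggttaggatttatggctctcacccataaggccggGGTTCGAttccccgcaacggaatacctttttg
C42D8.t1, with a peak, X:5085612-5085725, minus strand: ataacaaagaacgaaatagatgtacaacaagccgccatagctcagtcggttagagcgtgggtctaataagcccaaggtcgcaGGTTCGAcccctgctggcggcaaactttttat
R11B5.t3, without, X:2526208-2526321, minus strand: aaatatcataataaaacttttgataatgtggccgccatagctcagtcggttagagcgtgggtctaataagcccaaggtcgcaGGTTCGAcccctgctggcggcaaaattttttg
GGTTCGA itself was in 177 of the 276 X tRNA genes, of which 27.7% had a peak, and 30.3% of the 99 without it had one. Only these exact letters were counted, so a gene without them may still have a B box. How the authors treated reads that map equally well to several copies is not stated in the sources used, and its part in which copies are listed was not tested.

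snoRNA genes, whose products guide chemical modification of other RNAs, gave no strong X peak. None of the 176 IDR-thresholded X peaks lay within 200 bp of one, which allows a share of up to 1.70%, against 56 of 646 (8.67%, range 4% to 12.6%) on the autosomes (Fisher's exact test, adjusted p = 6.49e-06). X carries 33 snoRNA genes, fewer than the 54 to 74 of an autosome. None of the 33 had an IDR-thresholded summit, which allows up to 9.09%, while 11.1% to 23.6% had one on single autosomes, and this count by gene was not tested. Any pooled summit was near 6 of the 33. The strongest 822 of each replicate held 0 near-snoRNA peaks on X, and 55 and 57 on the autosomes.

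Away from all small RNA genes, 97 IDR-thresholded peaks were left on X and 488 on the autosomes. The promoter share was 53.6% on X (52 peaks, interval 43.7 to 63.2) and 73.4% on the autosomes (358 peaks, interval 69.3 to 77.1), with single autosomes from 66.9% to 78.3%. The odds ratio was 0.420 (95% interval 0.262 to 0.674), and the difference passed Fisher's exact test (adjusted p = 4.22e-04). In the replicate lists the shares were 49.04% and 53.2% on X against 70.6% and 71.4% on autosomes. The median distance from summit to the nearest 5' end was 839 bp on X and 247.5 to 282 bp on the autosomes. X has fewer genes per Mb, 154 against 188 to 239, and its promoter windows cover 17.6% of the chromosome against 20.04% to 25.7%. Against that coverage the X promoter share was 3.05 times as high, and the autosomal shares 2.99 to 3.72 times. The intronic share was 17.5% on X and 17.6% on the autosomes (odds ratio 0.993, 95% interval 0.524 to 1.80, adjusted p = 1 by Fisher's exact test).

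Counted by gene, 66 of 2731 X protein-coding genes (2.42%) had an IDR-thresholded summit in the promoter window, against 592 of 17242 autosomal genes (3.43%). The difference passed (odds ratio 0.697, 95% interval 0.530 to 0.903, Fisher's exact test, adjusted p = 0.00622), but chromosome V was lower than X at 2.18%, and with windows reaching 2000 bp upstream it did not pass (adjusted p = 0.0559). Without peaks near tRNA genes the counts were 53 X genes (1.94%) and 567 autosomal genes (3.29%). That difference passed (odds ratio 0.582, Fisher's exact test, adjusted p = 2.24e-04).

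The 52 promoter peaks of X away from small RNA genes were led by ftt-2, which had 2 of them. The stronger, 528 bp upstream of the 5' end, ranked 7 in the pool, 7 in replicate 1 and 6 in replicate 2, the strongest X peak of all. The weaker, 731 bp upstream, ranked 132, with 153 and 43. The uncharacterised gene T13C5.6 followed at rank 18, with 23 and 14, and its summit lay 184 bp upstream. Further named promoters, picked from the 52 after their ranks were seen, were serp-1.1 (rank 129), sec-3 (262), an exocyst subunit gene, kin-29 (292), a salt-inducible kinase gene, atf-6 (357), a transcription factor of the unfolded protein response, ain-1 (453 and 522), a GW182-type gene of the microRNA pathway, and utx-1 (656), a histone demethylase gene. The strongest ain-1 peak, 994 bp upstream, was the 1 X IDR-thresholded peak without a summit within 200 bp in both replicate lists. It ranked 323 in replicate 1 and had none that close in replicate 2. The overlapping ain-1 peak at rank 522, 784 bp upstream, ranked 571 and 335, so the locus is not missing from replicate 2.

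The 45 peaks outside promoter windows and away from small RNA genes lay between protein-coding genes in 28 cases, in introns in 16 and in a coding exon in 1. Their median distance to a 5' end was 2451 bp, and for 7 of them it was over 5000 bp. Annotated non-coding RNA genes of other types lay within 200 bp of 14, and a pseudogene of 1. No share over other peaks stands beside these counts, so they do not mark a trait of these peaks. The strongest was the mom-1 intron peak printed above, rank 26 in the pool, 29 in replicate 1 and 22 in replicate 2. The next, between genes 4028 bp downstream of the 5' end of W02H3.3, ranked 43, with 32 and 65. Among the rest were introns of ldb-1 (ranks 296 and 422), a LIM-domain-binding gene, and of act-4 (506 and 801), an actin gene, both named after their ranks were seen.

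Some of these outlying peaks held the core motif of X recruitment sites, GCGCAGGG, searched on both strands. Within 50 bp of the summit it was in 9 of the 97 X peaks away from small RNA genes (9.28%, interval 4.96 to 16.7) and in 0 of the 488 autosomal ones, which allows up to 0.615%. It was in 0.0388% of tiles of that length of X and 0.0263% of those of the autosomes. Within 200 bp it was in 14 of the 97 X peaks (14.4%, interval 8.80 to 22.8) and in 1 of the 488 autosomal ones (0.205%). Over all IDR-thresholded peaks, small RNA genes included, it was then in 15 of 176 on X and 4 of 646 on the autosomes. Of the 45 outlying X peaks 11 had it (24.4%, interval 14.2 to 38.7), and of the 130 autosomal peaks of that kind 0 did, which allows up to 2.31%. Those 11 include neighbouring mom-1 peaks, ranks 26 and 710, that share occurrences, and with each occurrence given to its nearest peak there were 10. In 401 bp tiles it was in 0.170% on X and 0.110% on the autosomes. Near tRNA genes, 1 of 78 X peaks had it within 200 bp, and among the 2142 X peaks not in the IDR-thresholded list 10 did (0.467%). These shares are a description of letters, with no test, and the letters alone do not show that a peak is a recruitment site.

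Seen from the motif, the 8 letters occur 81 times on X and 233 times on the autosomes, or 4.57 and 2.82 times per Mb. On X, 18 of the 81 (22.2%, interval 14.5 to 32.4) lay within 200 bp of an IDR-thresholded summit. On the autosomes 4 of the 233 did (1.72%, interval 0.670 to 4.33), all 4 on chromosome III. The strongest 822 peaks of each replicate gave 16 of 81 on X and 3 of 233 on the autosomes, alike in both replicates. Any pooled summit was within 200 bp of 28 X occurrences (34.6%) and 27 autosomal ones (11.6%).

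**Figure D3:**
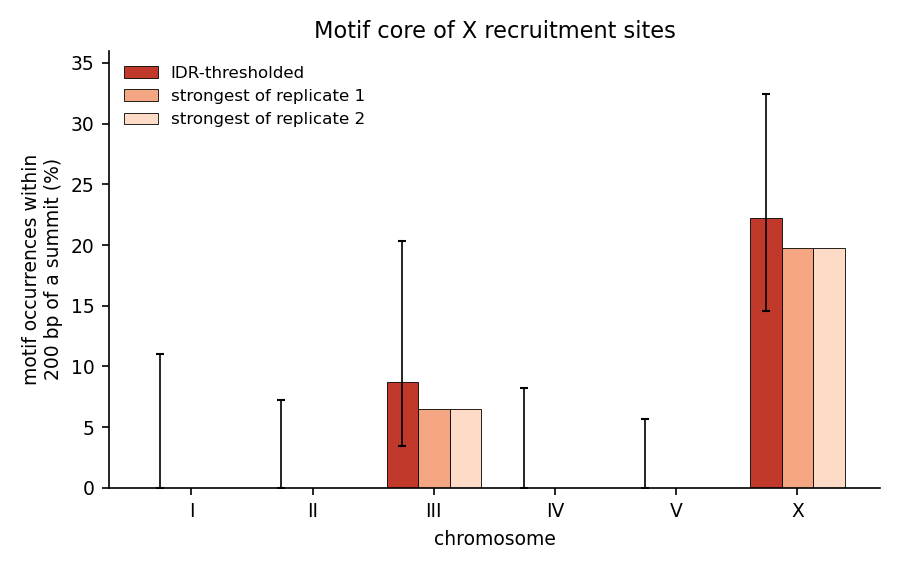
Bars give, per chromosome, the percentage of occurrences of the recruitment motif core that lie within 200 bp of a summit in the IDR-thresholded list and in the strongest 822 peaks of each replicate, with Wilson 95% intervals on the IDR-thresholded bars. X stands at 22.2%, chromosome III at 8.70%, and the other 4 chromosomes at 0.

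The 18 occurrences had their nearest IDR-thresholded summit at 14 X peaks, ranked 26 to 620, and 4 of these peaks held 2 occurrences. The distance from motif to summit ran from 7 to 193 bp with a median of 45 bp. The occurrences at those 4 peaks and at 3 further peaks are aligned below to show the bases beside the core, which is in capitals, with 12 bases to either side on the strand that reads it.
mom-1 intron, rank 26, X:6296536-6296567, plus strand: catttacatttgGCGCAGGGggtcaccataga
mom-1 intron, rank 26, X:6296564-6296595, plus strand: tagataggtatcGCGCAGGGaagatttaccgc
W02H3.3, rank 43, X:11094113-11094144, minus strand: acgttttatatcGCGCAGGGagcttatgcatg
W02H3.3, rank 43, X:11094214-11094245, minus strand: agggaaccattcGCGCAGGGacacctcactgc
gtr-1, rank 117, X:806662-806693, plus strand: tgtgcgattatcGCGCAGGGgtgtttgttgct
gtr-1, rank 117, X:806738-806769, plus strand: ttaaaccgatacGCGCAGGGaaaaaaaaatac
Y41G9A.17 intron, rank 145, X:2997111-2997142, minus strand: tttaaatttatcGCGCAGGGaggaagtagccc
Y41G9A.17 intron, rank 145, X:2997286-2997317, minus strand: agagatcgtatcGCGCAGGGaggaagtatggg
nspc-17, rank 171, X:14525888-14525919, minus strand: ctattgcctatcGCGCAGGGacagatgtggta
F20B6.9, rank 220, X:4209254-4209285, minus strand: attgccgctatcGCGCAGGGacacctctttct
B0302.2, rank 552, X:17181353-17181384, minus strand: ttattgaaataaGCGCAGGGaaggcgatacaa
Over all 18, the base just before the core was C in 14 and the base before that was T in 12. The base just after the core was A in 13. Farther out no base was found in more than 10 of the 18. Lines with an intron name the host gene, and the other lines name the gene with the nearest 5' end, beside an intergenic summit.

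**Figure D4:**
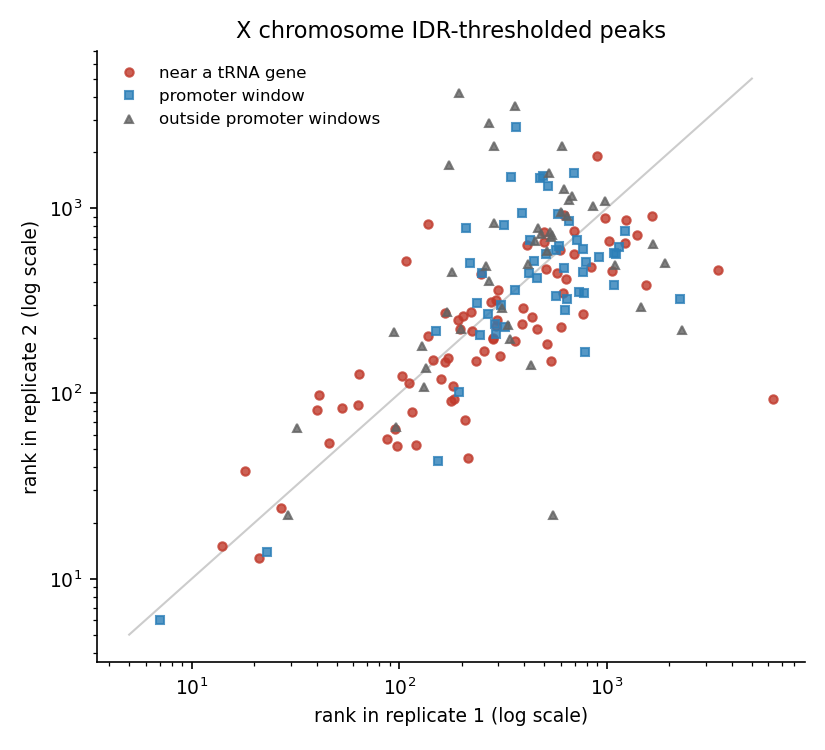
Each point is an IDR-thresholded X peak with a summit in both replicate lists, placed by its rank in replicate 1 and in replicate 2 on log axes, and the symbols separate peaks near tRNA genes, in promoter windows and outside. The line marks equal rank. The strongest, at ftt-2, lies at the lower left at ranks 7 and 6, and most points of all 3 kinds lie between ranks 100 and 2000 in both replicates.

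Support in the replicate lists was counted as a summit within 200 bp. The IDR-thresholded list was chosen on the replicates, so its support, at 175 of 176 X peaks and 643 of 646 autosomal ones, is a description only. Among the strongest 822 of both replicates were 126 of the X peaks (71.6%) and 415 of the autosomal ones (64.2%). A replicate summit can count for neighbouring peaks, as replicate 2 rank 22 did for the mom-1 peaks at ranks 26 and 710. Gaps under 2000 bp between IDR-thresholded peaks numbered 16 on X and 1 to 10 on single autosomes. These shares were not recomputed with such peaks merged. Over all 2318 X peaks, 1084 (46.8%) had a summit in both lists, 630 in replicate 1 alone, 509 in replicate 2 alone and 95 in neither. On the autosomes 42.7% had one in both, with a range of 39.8% to 44.6%. The difference passed (odds ratio 1.18, 95% interval 1.08 to 1.29, Fisher's exact test, adjusted p = 4.22e-04), but with summits required within 50 bp it did not (adjusted p = 0.0877). These totals include the IDR-thresholded peaks. Without them the shares were 42.4% on X and 39.6% on the autosomes (odds ratio 1.12, Fisher's exact test, adjusted p = 0.0195), a setting chosen after seeing the data.

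X held a larger share of the strong peaks than of the weaker ones. X held 21.4% of the IDR-thresholded peaks and 15.1% of the other pooled peaks (odds ratio 1.53, 95% interval 1.28 to 1.82, Fisher's exact test, adjusted p = 9.85e-06). In the strongest 822 of replicate 1 the X share was 21.05% and in those of replicate 2 it was 20.6%, against 15.5% and 16% of their whole lists. The difference was not found without the peaks near tRNA genes, where X held 14.9% of both sets (odds ratio 1.00, Fisher's exact test, adjusted p = 1), and did not pass without peaks near any small RNA gene (odds ratio 1.13, adjusted p = 0.383).

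**Figure D5:**
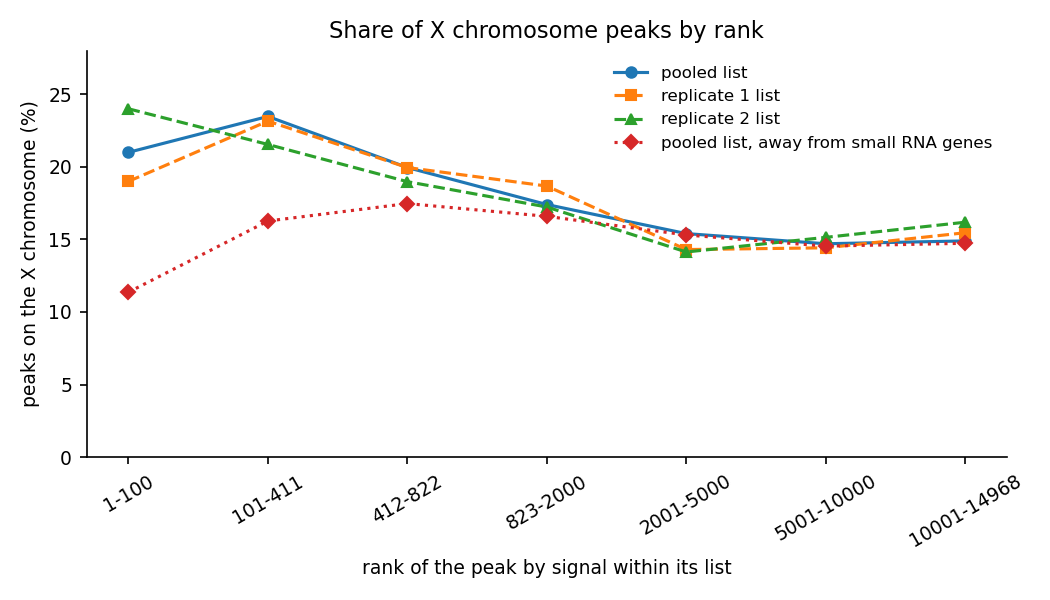
Lines give the percentage of peaks on X in bins of rank by signal, for the pooled list, each replicate list, and the pooled list without peaks near small RNA genes. In the pooled list the share is 23.5% in the second bin and 14.7% in the sixth, and without small RNA genes it is 11.4% among the first 100 ranks (5 of 44 peaks).

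Along the chromosome the IDR-thresholded peaks were spread over its whole length, with 57, 55 and 64 in the left, middle and right of 3 equal segments. Whole 1 Mb windows held 4 to 17 of them, with a median of 10. The windows with most were X:16000001-17000000 with 17, of which 7 were near a tRNA gene, X:13000001-14000000 with 15, of which 10 were, and X:9000001-10000000 with 13, of which 7 were. The windows of the first pair also held 32 and 30 tRNA genes, against a total of 276. Windows did not simply follow tRNA gene number. X:8000001-9000000, with 51 tRNA genes, held 11 IDR-thresholded peaks. X:2000001-3000000 and X:4000001-5000000, with 7 and 5 tRNA genes, held 12 each. The window X:4000001-5000000 includes the ztf-16 peaks at ranks 303, 333 and 360, where transgene signal cannot be told apart, as set out below.

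At the ztf-16 locus itself, from 3000 bp upstream to its end, the pooled list had 9 peaks, 3 of them in the IDR-thresholded list. The strongest, in an intron 1257 bp downstream of the 5' end, ranked 303, with 313 in replicate 1 and 290 in replicate 2. A peak 1873 bp upstream ranked 333, with 2308 and 221, and an intronic one 2078 bp downstream ranked 360, with 611 and 2154, so the replicates differed at both. The genotype names a ztf-16 transgene and no change of the resident gene, so signal from the locus and from the transgene cannot be told apart. The sources do not say whether added copies of the locus were corrected for, and their part in these ranks was not tested. At hbl-1, the Hunchback orthologue that times larval cell fates, the pooled list had 8 peaks and none in the IDR-thresholded list. The strongest, 2778 bp upstream, ranked 2342, with 3297 and 4981.

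Among 10 gene lists, 100 listed genes are on X. Of these, 5 had an IDR-thresholded summit in the promoter window and 29 (29.0%) any pooled summit, beside 2.42% and 22.1% of all X protein-coding genes. Among 6 X genes of the X signal and dosage compensation list, 1 had an IDR-thresholded summit: sdc-1, a zinc-finger gene of sex determination and dosage compensation, ranked 691, with 475 and 1450. The weaker list of 4 added fox-1 (rank 1394), an RNA-binding X signal gene, and sdc-2 (1463), which starts recruitment of the complex to X. The homeobox and neuronal fate list had 0 of 18 X genes in the IDR-thresholded list and 1 with any pooled summit, sox-2 (rank 2097). The intestine list had 0 of 9 in both. The heterochronic list had 0 of 6 and 4, with hbl-1 (862 bp upstream, rank 2534), lin-14 (3331) and nhr-25 (3669) the highest.

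The touch receptor, channel and synapse list had 1 of 18, lev-9 (rank 61), which helps cluster acetylcholine receptors at the neuromuscular junction, and 5 with any pooled summit, unc-10 (2944) and mec-2 (7034) next. The lev-9 summit is also within 200 bp of the tRNA-Ala gene T07H6.t2. The growth factor and Ras list had 1 of 13, the fibroblast growth factor gene egl-17 (rank 105), whose summit is within 200 bp of the tRNA-Asp gene F38G1.t2, and 5 with any, sem-5 (1268) and kqt-1 (3811) next. The cuticle list had 1 of 8, the clathrin adaptor gene dpy-23 (rank 447), and 3 with any, nhr-25 and col-166 (6721) being the others. The translation and proteostasis list had 1 of 3, the endoplasmic reticulum chaperone gene hsp-3 (rank 253, 269 in each replicate), and 2 with any, eef-1A.2 (880) being the other. The axon guidance list had 0 of 11 and 3 with any, unc-115 (1699), sdn-1 (2155) and syg-1 (4657). The muscle list had 0 of 10 and 3 with any, unc-84 (3763), unc-78 (5566) and unc-97 (8912). List names are broad labels and do not give the function of each member, kqt-1 and unc-84 among them.

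Mean GC content within 50 bp of strong summits was 50.1% ± 7.02 (SD over 176 peaks) on X and 48.4% ± 8.30 (SD over 646 peaks) on the autosomes. It was 41.5% ± 9.08 for the other X peaks (2142) and 35.2% ± 8.31 for tiles of X. The order of X and autosomes differed by kind of peak. Away from small RNA genes the means were 51.0% ± 6.70 (97 peaks) on X and 47.5% ± 8.48 (488 peaks) on the autosomes. Near tRNA genes they were 48.7% ± 6.98 (78 peaks) and 50.4% ± 6.31 (87 peaks). The means were not tested. GAGAGAGA was in 8.25% of X and 5.53% of autosomal peaks away from small RNA genes, and in 0.553% of X tiles. AAAAAAA was in 5.15% and 10.2% of them, and in 21.3% of X tiles. GGTTCGA was in 32.1% of the near-tRNA X windows and 0.649% of X tiles. All 4 sets of letters were searched on both strands and none of the shares was tested.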

How the data were processed

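The signal value of each peak is the authors' own, deposited in narrowPeak lists, and it is comparable only within a list. Each relaxed list was called against 1 control file, per the deposited notes. The sources used here name no aligner, no peak caller and no IDR cutoff, and do not say how multiply mapping reads were handled. Summit offsets were read from the deposited lists, and 1-based summits were matched to Ensembl release 115 genes on WBcel235, the assembly of ce11. tRNA isotypes and sequences came from RefSeq, and 607 of the 612 tRNA genes were matched to an isotype. Of the 176 strong X peaks, 161 have a width of 440 bp and a central summit, so positions are approximate. A setting in which summits match within 200 bp was used throughout.

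Named genes are those nearest the 15 strongest X peaks, up to 3 per gene list, the ztf-16 and hbl-1 loci, the isotypes with most X genes (3, or 4 with a tie) and the 1 Mb windows with most members. Other names (further promoter and intron peaks, tRNA copies and motif-bearing peaks) were picked after values were seen. The members, gene lists, letters and tests were chosen with earlier results of these data known. Tests were two-sided Fisher's exact tests at a threshold of 0.05, first tested on simulated data with known shares. Columns of other samples numbered 0. Python 3.11.15, numpy 2.4.6, pandas 2.3.3, scipy 1.17.1 and matplotlib 3.10.9 were used. Alternatives varied the distance to a gene, the promoter window, the match distance, the build, the upper 411 peaks and each replicate's own list, or left out peaks near tRNA genes, near any small RNA gene or in the IDR-thresholded list.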

Additional observations from a re-analysis of the deposited data

How the results depend on the processing

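Of 44 alternatives over the 8 tests, 36 kept the direction and the side of the threshold. The X share of IDR-thresholded peaks had an odds ratio of 1.13 without peaks near small RNA genes and 1.00 without peaks near tRNA genes, and passed in neither. The intronic odds ratio turned to 1.03 with 100 bp to a small RNA gene, 1.04 with 400 bp and 1.07 in the upper 411 peaks, and passed nowhere. The odds ratio for tRNA genes passed at 1.76 in the upper 411 peaks, that for protein-coding genes did not pass at 0.799 with a 2000 bp window, and that for both-replicate support did not pass at 1.11 with 50 bp between summits. The causes were not tested beyond what each setting leaves out. Both-replicate support was also run without the IDR-thresholded peaks and without peaks near small RNA genes, alternatives chosen after seeing the data, and passed in both. No paired analysis was possible because the series has only 1 group. Depth is unknown, so a weak site cannot be told from an absent one.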
